A study of Mus musculus with 12 samples.

Results

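The 10 matrix-binding integrin genes Itga1, Itga5, Itga6, Itga8, Itga11, Itgav, Itgb1, Itgb3, Itgb5 and Itgb7 were followed in mouse mesenchymal stem/stromal cells (MSCs) with and without the kinase p38α and with and without TGF-β. Members were chosen by name, and a probeset (the group of short probes on the array that report together on a transcript) was counted for a gene when the platform annotation gave it exactly 1 of these symbols. By that rule 21 of the 45037 probesets tested belonged to 9 of the 10 genes. Itga11, an α subunit that binds collagen, had no probeset in the annotation used here and was not analysed. Itgav and Itgb1 had 5 probesets each, Itga6, Itga8, Itgb3 and Itgb5 had 2 each, and Itga1, Itga5 and Itgb7 had 1 each. Where a gene is given by 1 value, it is that of its representative, the probeset whose values had the widest median absolute deviation.

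Integrins are paired receptors of 1 α and 1 β chain that span the cell membrane. Outside the cell they hold on to fibronectin, vitronectin, collagens and laminins, and inside it they bind talin, kindlin and other adaptors that connect to actin. The αv integrins also hold the latent form of TGF-β and can release it, so that in stromal cells the receptors are both responders to this cytokine and part of its activation. The β1 chain (Itgb1, also known as CD29) is used as a surface marker of MSCs.

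All cells were immortalized MSCs made from the bone marrow of Mapk14 lox/lox mice carrying an inducible Cre. The methods do not give the number of lines. FVB/NJ is given as background strain in the labels, whereas the methods name C57BL/6J for the mice of the study. The floxed Mapk14 alleles, which encode p38α, and the Cre were therefore present in all 4 groups. The p38α∆ MSCs (labelled KO) had been made by incubation with 4-hydroxytamoxifen and the WT MSCs (labelled CTRO) had received vehicle. All cells were starved in 0.5% serum, and the treated groups received TGF-β at 5 ng/ml for 20 h. The 12 arrays held 4 of WT MSCs (numbered 1, 3, 4 and 4b), 3 of TGF-β-treated WT MSCs (1, 3 and 4), 2 of p38α∆ MSCs (1 and 3) and 3 of TGF-β-treated p38α∆ MSCs (1, 2 and 4). The meaning of the numbers is not given, nor is it stated that arrays came from separate cultures, so p-values measure the spread between these arrays, which may be technical.

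Values are log2 intensities after RMA, the standard background correction, normalization and summary of Affymetrix probes. A difference of 1 is a doubling, and the number of arrays limits the precision. Levels of different probesets do not rank the amounts of their transcripts. A level set beside the median of all probesets describes the signal and does not show whether a transcript is present. On the representative Mapk14 probeset (1426104_PM_at), WT MSCs lay between 5.00 and 5.35 and p38α∆ MSCs between 4.99 and 5.08 without TGF-β, and with it the ranges were 5.24 to 6.01 and 5.16 to 5.89. None of the 6 Mapk14 probesets was called between the genotypes by limma, with differences of −0.18 to 0.02 without TGF-β. Where these probesets lie relative to the deleted part is not given, so these values check the genotype labels in neither direction. Over all genes, the first principal component (51.2% of the variance) set the 4 arrays numbered 1, between −43.8 and −28.1, apart from the other arrays, between 4.1 and 34.5. The array number was a random block in every test, and results are also given within numbers. Of 7 leukocyte markers none was called in any comparison and their mean level stayed between 3.90 and 4.21 in all arrays. The common leukocyte antigen Ptprc lay between 2.67 and 2.97, and the mean over the 7 endothelial markers lay between 3.56 and 3.90, against a median of 4.25 over all probesets.

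TGF-β lowered Itgb7 in WT MSCs, and no other integrin of the group passed the test in either genotype. In the WT response 6.0% of all probesets were called (limma, Benjamini-Hochberg adjusted p under 0.05), and 1 of the 21 integrin probesets was. By representatives 1 of the 9 genes fell and none rose, where 4.45% of all genes fell and 3.84% rose. The median log2 fold change of the 9 genes was 0.12 against −0.01 over all 17097 genes, with 7 of the 9 above 0. In the response of p38α∆ MSCs 5.21% of probesets, 3.02% of genes rising and 4.07% of genes falling were the background, none of the 9 integrins was called, and their median was 0.22 against 0.00. At an unadjusted limma p under 0.05, 5 of the 21 integrin probesets passed in WT MSCs, where 7651 of all 45037 did. In p38α∆ MSCs 2 of the 21 passed, where 7432 of all 45037 did. Whether these counts differ from the share over the array was not tested.

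**Figure D1:**
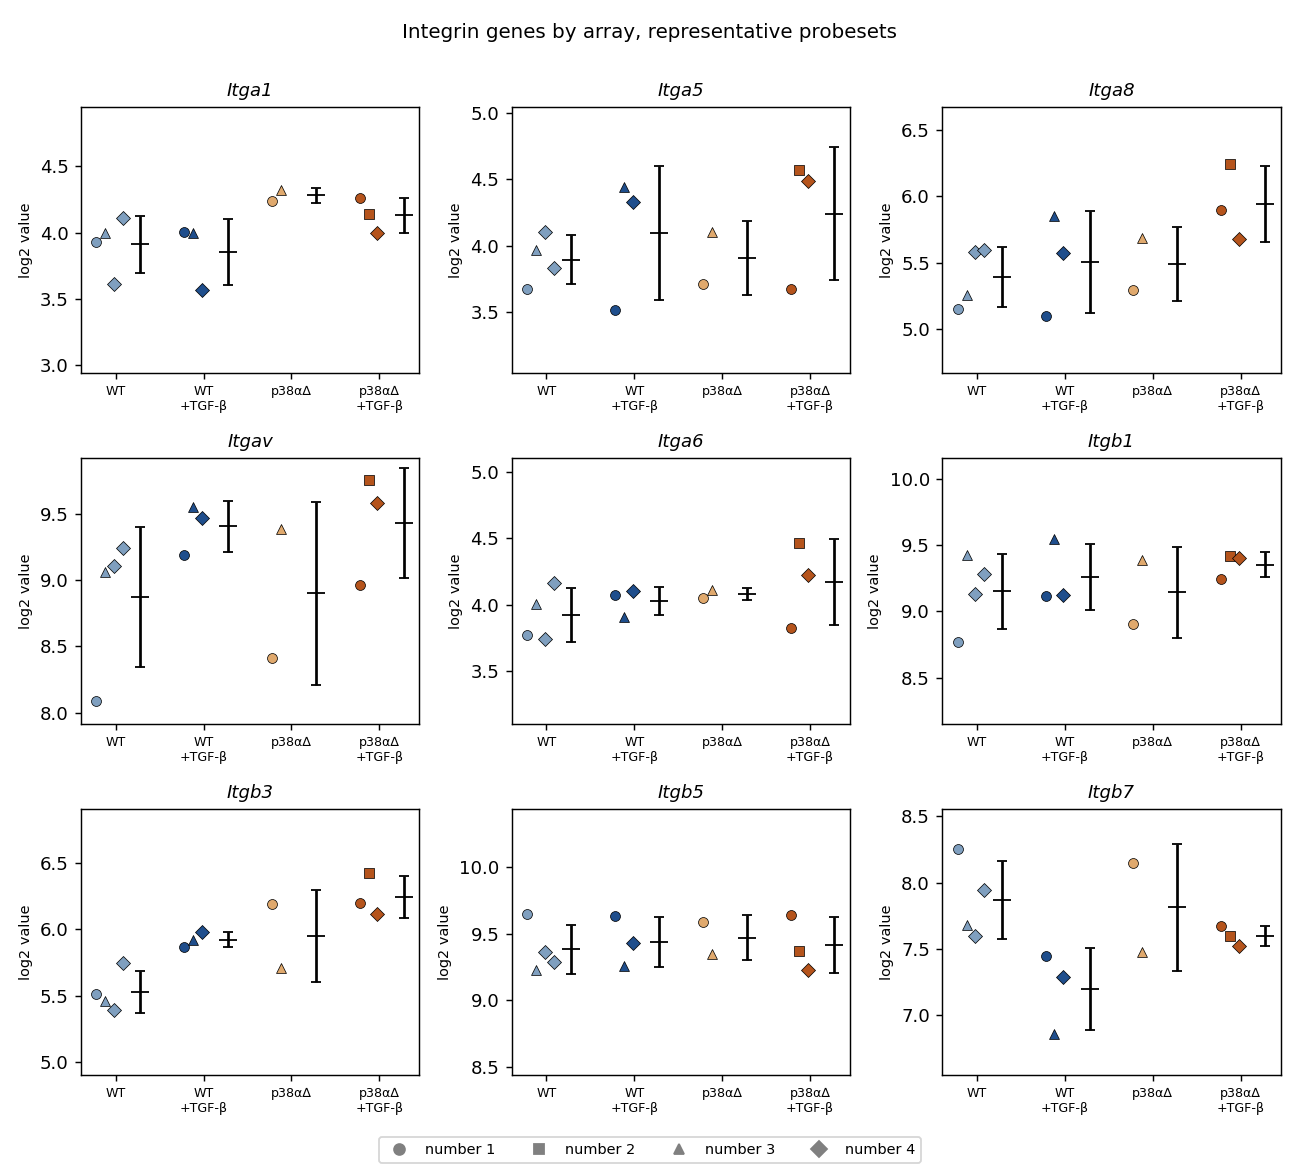
Log2 intensity (vertical axis, spanning 2 units in every panel) of the representative probeset of 9 integrin genes in 4 groups of arrays. Points are arrays with the shape giving the array number, and bars beside them are the mean and SD. Itgb7 is lower in all 3 TGF-β-treated WT arrays (6.86 to 7.45) than in the 4 untreated ones (7.60 to 8.25), whereas Itgb5 stays between 9.23 and 9.65 in all groups.

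Among the α chains, Itgav, the αv subunit that pairs with several β chains to bind vitronectin, fibronectin and latent TGF-β, had fold changes above 0 on its bright probesets. On probeset 1452784_PM_at the WT arrays 1, 3, 4 and 4b gave 8.09, 9.06, 9.11 and 9.24, and the TGF-β-treated arrays 1, 3 and 4 gave 9.19, 9.55 and 9.47. Array 1 was the lowest of its group both times, and the groups overlapped only through WT array 4b. The log2 fold change was 0.58 ± 0.19 (SE, limma adjusted p = 0.113), and within numbers it was 1.10 in number 1, 0.49 in number 3 and 0.30 in number 4, so that it was above 0 in 3 of 3. This was the highest fold change among the 21 probesets in WT MSCs, but it rested partly on WT array 1, without which it was 0.41, below the 0.46 of an Itgb3 probeset with all arrays. In p38α∆ MSCs the untreated arrays 1 and 3 gave 8.41 and 9.39 and the treated arrays 1, 2 and 4 gave 8.96, 9.75 and 9.58, which overlapped, with a log2 fold change of 0.45 ± 0.24 (limma adjusted p = 0.405). That value was 0.17 without untreated p38α∆ array 1 and 0.69 without untreated p38α∆ array 3, and within number 1 the difference was 0.55. On the second bright Itgav probeset, 1421198_PM_at, the fold changes were 0.27 ± 0.10 in WT MSCs (adjusted p = 0.175) and 0.45 ± 0.13 in p38α∆ MSCs (adjusted p = 0.085) by the same limma fit. The other 3 Itgav probesets gave smaller fold changes. On 1432296_PM_a_at they stayed above 0, at 0.03 and 0.14 in WT and p38α∆ MSCs, and the dim 1432678_PM_at and 1432679_PM_at lay between −0.09 and 0.07. Dim here means a mean over the 12 arrays below 4.25, the median of all probesets.

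Itga8, the α8 subunit that recognizes nephronectin, fibronectin and tenascin C, was measured by 2 probesets. On 1454966_PM_at the untreated WT arrays gave 5.15, 5.25, 5.58 and 5.59 and the treated WT arrays 5.10, 5.85 and 5.57, with full overlap and a log2 fold change of 0.13 ± 0.16. In p38α∆ MSCs the untreated arrays gave 5.29 and 5.69 and the treated arrays 5.90, 6.25 and 5.68, so that the lowest treated value fell just below the higher untreated one. The log2 fold change was 0.40 ± 0.21 there (limma adjusted p = 0.378), and 0.36 ± 0.16 on 1427489_PM_at (limma adjusted p = 0.272). Within number 1 the differences on these probesets were 0.61 and 0.47.

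The collagen- and laminin-binding Itga1 (1455251_PM_at), the fibronectin-binding Itga5 (1457561_PM_at) and the laminin-binding Itga6 (1422444_PM_at and 1422445_PM_at) were dim, with means over the arrays of 4.01, 4.03, 4.04 and 4.02. Their log2 fold changes to TGF-β ran from −0.08 to 0.25 over both genotypes, and none was called by limma. The widest of these was Itga5, where the untreated WT arrays ranged from 3.67 to 4.10 and the treated ones from 3.52 to 4.44. Within numbers Itga5 gave −0.16, 0.47 and 0.36 in numbers 1, 3 and 4, so the array numbered 1 moved against the others. For these dim probesets a missing call says little about the transcript.

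**Figure D2:**
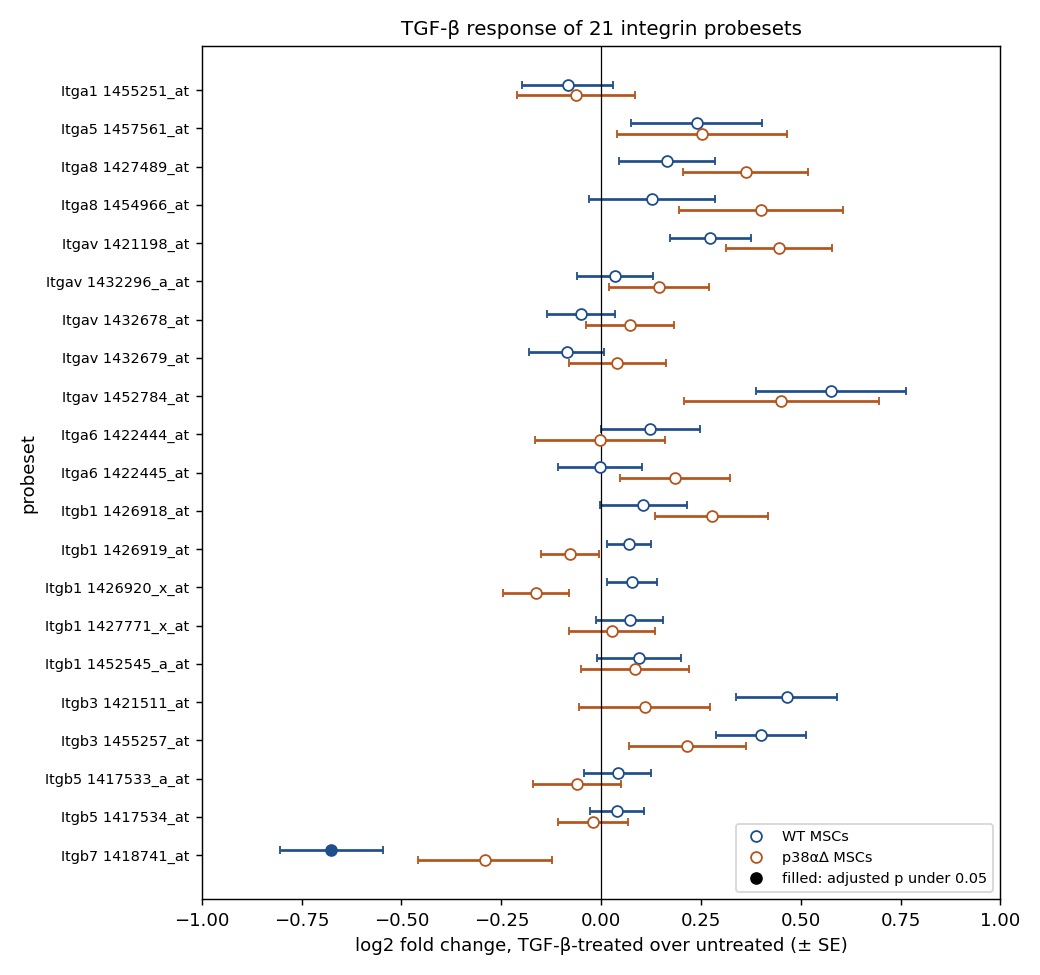
Log2 fold change to TGF-β (horizontal axis, with bars giving the SE of the limma fit) of the 21 integrin probesets (vertical axis) in WT and in p38α∆ MSCs. A filled point has an adjusted p under 0.05. The single filled point is Itgb7 in WT MSCs at −0.68, and both Itgb3 probesets and 3 of 5 Itgav probesets lie above 0 in both genotypes.

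Among the β chains, Itgb7 was the 1 member that passed the test, in WT MSCs. It pairs with α4 or αE to bind MAdCAM-1, VCAM-1, fibronectin or E-cadherin and is best known from lymphocytes homing to the gut. On its single probeset, 1418741_PM_at, the untreated WT arrays 1, 3, 4 and 4b gave 8.25, 7.68, 7.60 and 7.95 and the TGF-β-treated arrays 1, 3 and 4 gave 7.45, 6.86 and 7.29. Every treated array lay below every untreated one. The means were 7.87 ± 0.29 (SD, n = 4) and 7.20 ± 0.31 (SD, n = 3), and the log2 fold change was −0.68 ± 0.13 (SE, limma adjusted p = 0.00899). Within numbers the differences were −0.80 in number 1, −0.82 in number 3 and −0.48 in number 4, so the fall was seen in 3 of 3. The call was lost without TGF-β-treated WT array 3 (limma adjusted p = 0.0624) and with no block on the array number (limma adjusted p = 0.170), and the log2 fold change stayed between −0.76 and −0.59 over all alternatives.

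In p38α∆ MSCs the untreated arrays 1 and 3 gave 8.15 and 7.48 for Itgb7 and the treated arrays 1, 2 and 4 gave 7.67, 7.60 and 7.52. The treated arrays lay between the pair of untreated ones, which stood further apart from each other than from any treated array, and the log2 fold change was −0.29 ± 0.17 (limma adjusted p = 0.446). Within number 1, the only number in both p38α∆ groups, the difference was −0.48. The fold change was −0.11 without untreated array 1 and −0.44 without untreated array 3. The difference of both responses was 0.38 ± 0.22 (limma adjusted p = 0.945), so the smaller fall in p38α∆ MSCs was not shown to differ from the one in WT MSCs. Without the 4 arrays numbered 1 the WT fold change remained called and the p38α∆ value was 0.04, resting then on 1 untreated array.

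Of the partners of β7, all 5 probesets of Itga4 had means over the arrays between 2.61 and 3.71, below the array median, and the Itgae probeset 1449216_PM_at had a mean of 4.27. Neither gene was called in any comparison (limma), with log2 fold changes to TGF-β on the representatives of −0.15 and 0.02 in WT MSCs and −0.03 and 0.31 in p38α∆ MSCs. Itgb2, the β2 chain of leukocyte integrins, had a mean of 6.47 on 1450678_PM_at and was not called either.

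The 250 bases before a transcript start of Itgb7, the only member called, and of Itgav, whose probeset 1452784_PM_at had the highest fold change among the 21, are shown because TGF-β acts on transcription through Smad proteins, whose core site reads CAGAC, and because p38α can act through AP-1, whose site reads TGANTCA. The sequences are from RefSeq on build GRCm38.p6, written from 5′ to 3′ on the strand of the gene, with matches to CAGAC or to its reverse complement in capitals. Each stretch precedes the 1 transcript start given in the promoter table and lies inside the annotated span of its gene, downstream of the outermost start.
Itgb7, chr15:102231936-102232185, minus strand: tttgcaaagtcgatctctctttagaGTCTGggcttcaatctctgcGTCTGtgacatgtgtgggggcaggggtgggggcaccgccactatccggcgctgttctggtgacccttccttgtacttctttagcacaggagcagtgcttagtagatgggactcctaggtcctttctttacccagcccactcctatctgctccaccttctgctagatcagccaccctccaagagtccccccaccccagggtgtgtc
Itgav, chr2:83724147-83724396, plus strand: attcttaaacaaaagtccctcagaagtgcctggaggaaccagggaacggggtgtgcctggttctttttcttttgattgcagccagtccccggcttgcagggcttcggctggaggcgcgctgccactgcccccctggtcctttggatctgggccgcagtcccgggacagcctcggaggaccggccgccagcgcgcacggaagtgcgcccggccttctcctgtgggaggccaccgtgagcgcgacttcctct
The Itgb7 stretch held 2 matches to CAGAC, both on the opposite strand, and the Itgav stretch held none. Both strands were searched in the 8 members with an entry, and Itga1 had 1 match and Itgb1 had 3, so that 3 of 8 held the motif where 42.2% of all 32851 promoter stretches did. TGANTCA was in none of the 8, where 6.75% of all stretches held it. The GC box GGGCGG, a common site of housekeeping promoters, was in Itga5, Itgb1 and Itgb5, with 2, 1 and 3 matches, where 32.7% of all stretches held it. No matches of different motifs overlapped. A match is a description of these letters and not a bound site, and Itga6 and Itgb3 were not searched.

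Itgb3, the β3 chain that forms the vitronectin receptor with αv, was nearest to the threshold. On 1455257_PM_at the untreated WT arrays 1, 3, 4 and 4b gave 5.51, 5.46, 5.39 and 5.75 and the treated arrays 1, 3 and 4 gave 5.87, 5.92 and 5.98. On 1421511_PM_at the untreated arrays gave 4.94, 4.61, 4.59 and 5.05 and the treated arrays 5.53, 5.18 and 5.09. On both probesets all treated arrays lay above all untreated ones. The log2 fold changes were 0.40 ± 0.11 and 0.46 ± 0.13, with limma adjusted p-values of 0.0635 and 0.0552, and every number gave a value above 0, from 0.28 to 0.60. With 1 probeset per gene in the fit the limma adjusted p of 1455257_PM_at was 0.0434. That fit held fewer probesets and also estimated the block correlation anew, at 0.522, and which of these gave the call was not tested. The call was also gained when WT array 4b or either untreated p38α∆ array was left out. The other probeset, 1421511_PM_at, was called when WT arrays 4 and 4b were averaged (limma adjusted p = 0.0363) or when 4b was left out (limma adjusted p = 0.0172). In p38α∆ MSCs the untreated arrays 1 and 3 gave 6.19 and 5.71 on 1455257_PM_at and the treated arrays 1, 2 and 4 gave 6.20, 6.42 and 6.12, with overlap and a log2 fold change of 0.22 ± 0.15 (limma adjusted p = 0.535). That value was 0.49 without untreated p38α∆ array 1 and 0.00 without untreated p38α∆ array 3, and within number 1 the difference was 0.00.

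Itgb1, the β1 chain shared by most collagen, laminin and fibronectin receptors, differed little. On its brightest probeset, 1452545_PM_a_at, the group means were 11.09 in WT MSCs and 11.18 with TGF-β, and 11.20 in p38α∆ MSCs and 11.24 with TGF-β. Over its 3 probesets above the array median (1426918_PM_at, 1427771_PM_x_at and 1452545_PM_a_at) the log2 fold changes to TGF-β ran from 0.03 to 0.28 in both genotypes, and none was called by limma. The remaining probesets, 1426919_PM_at and 1426920_PM_x_at, were dim at means of 2.78 and 3.37.

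Itgb5, the β5 chain of the other widespread vitronectin receptor, differed little as well. Its log2 fold changes to TGF-β were 0.04 ± 0.08 on 1417533_PM_a_at and 0.04 ± 0.07 on 1417534_PM_at in WT MSCs, and −0.06 ± 0.11 and −0.02 ± 0.09 in p38α∆ MSCs. On 1417533_PM_a_at the arrays numbered 1 were the highest of every group, at 9.65, 9.63, 9.59 and 9.64.

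**Figure D3:**
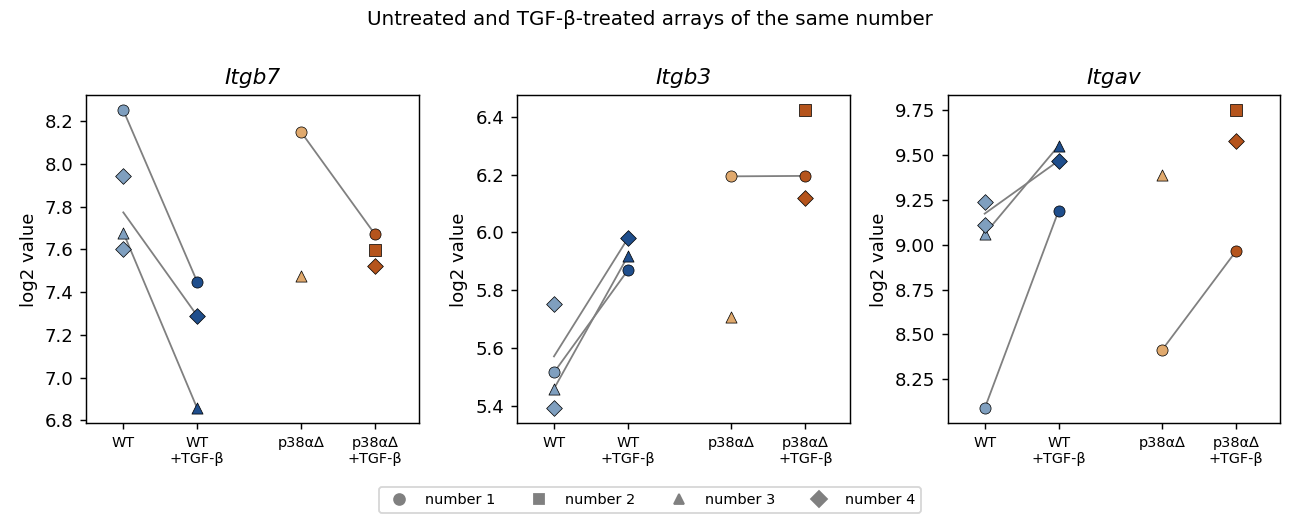
Log2 intensity of the representative probesets of Itgb7, Itgb3 and Itgav (vertical axis, own scale in each panel) in the 4 groups. Points are arrays with the shape giving the number, and lines join untreated and TGF-β-treated arrays of the same number, with WT arrays 4 and 4b averaged. All 3 lines of WT MSCs go down for Itgb7 (−0.80, −0.82 and −0.48) and up for Itgb3 (0.35, 0.46 and 0.41) and Itgav (1.10, 0.49 and 0.30), and number 1 alone gives a line for p38α∆ MSCs.

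Between the genotypes no integrin of the group passed the test. With TGF-β in both, 0.187% of all probesets were called by limma and none of the 21 was. By representatives none of the 9 genes was higher, where 0.211% of all genes were, and none was lower, where 0.0117% were. Without TGF-β, 0% of all probesets were called by limma, that is 0 of 45037, with 2049 at an unadjusted p under 0.05. At that unadjusted level 3 of the 21 integrin probesets passed with TGF-β (Itga1 and both of Itga8), where 3179 of all 45037 did. Without it 2 of the 21 passed (both of Itgb3), where 2049 of all 45037 did. Whether these counts differ from the share over the array was not tested. The median difference of the 9 genes was 0.16 with TGF-β and 0.14 without it, against −0.01 and 0.00 over all genes, with 8 and 7 of the 9 above 0.

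Itga8 differed with TGF-β by 0.41 ± 0.18 on 1454966_PM_at and by 0.32 ± 0.14 on 1427489_PM_at (limma adjusted p = 0.687 and 0.666). On 1427489_PM_at the treated WT arrays 1, 3 and 4 gave 4.75, 4.91 and 4.74 and the treated p38α∆ arrays 1, 2 and 4 gave 4.97, 5.43 and 5.02, which did not overlap. On 1454966_PM_at they did, and within numbers the difference there was 0.80 in number 1 and 0.11 in number 4. It was 0.24 without treated WT array 1 and 0.66 without treated p38α∆ array 4. Without TGF-β the Itga8 differences were 0.14 ± 0.19 and 0.13 ± 0.14.

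Itga1 gave similar differences with and without TGF-β, 0.30 ± 0.13 and 0.28 ± 0.14 (limma adjusted p = 0.677 and 0.987). The untreated WT arrays gave 3.93, 4.00, 3.61 and 4.11 against 4.24 and 4.32 in p38α∆ MSCs, which did not overlap. With TGF-β they gave 4.00, 4.00 and 3.57 against 4.26, 4.14 and 3.99, where the lowest p38α∆ array fell among the WT arrays. This probeset is dim, as given above.

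Itgb3 differed by 0.44 ± 0.13 on 1455257_PM_at and 0.36 ± 0.15 on 1421511_PM_at without TGF-β (limma adjusted p = 0.987 for both), and by 0.26 ± 0.13 and 0.00 ± 0.14 with it. Without TGF-β the p38α∆ arrays 1 and 3 lay at 6.19 and 5.71 on 1455257_PM_at, where WT array 4b reached 5.75. Within numbers the difference was 0.68 in number 1 and 0.25 in number 3. It was 0.19 without p38α∆ array 1 and 0.68 without p38α∆ array 3, and on 1421511_PM_at 0.51 and 0.21. Itgb7 differed by 0.32 ± 0.15 with TGF-β (limma adjusted p = 0.722), with all 3 p38α∆ arrays above all 3 WT arrays, and by −0.07 ± 0.15 without it. Each comparison of the genotypes shares its arrays with a TGF-β response given above, so these values are not separate evidence.

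**Figure D4:**
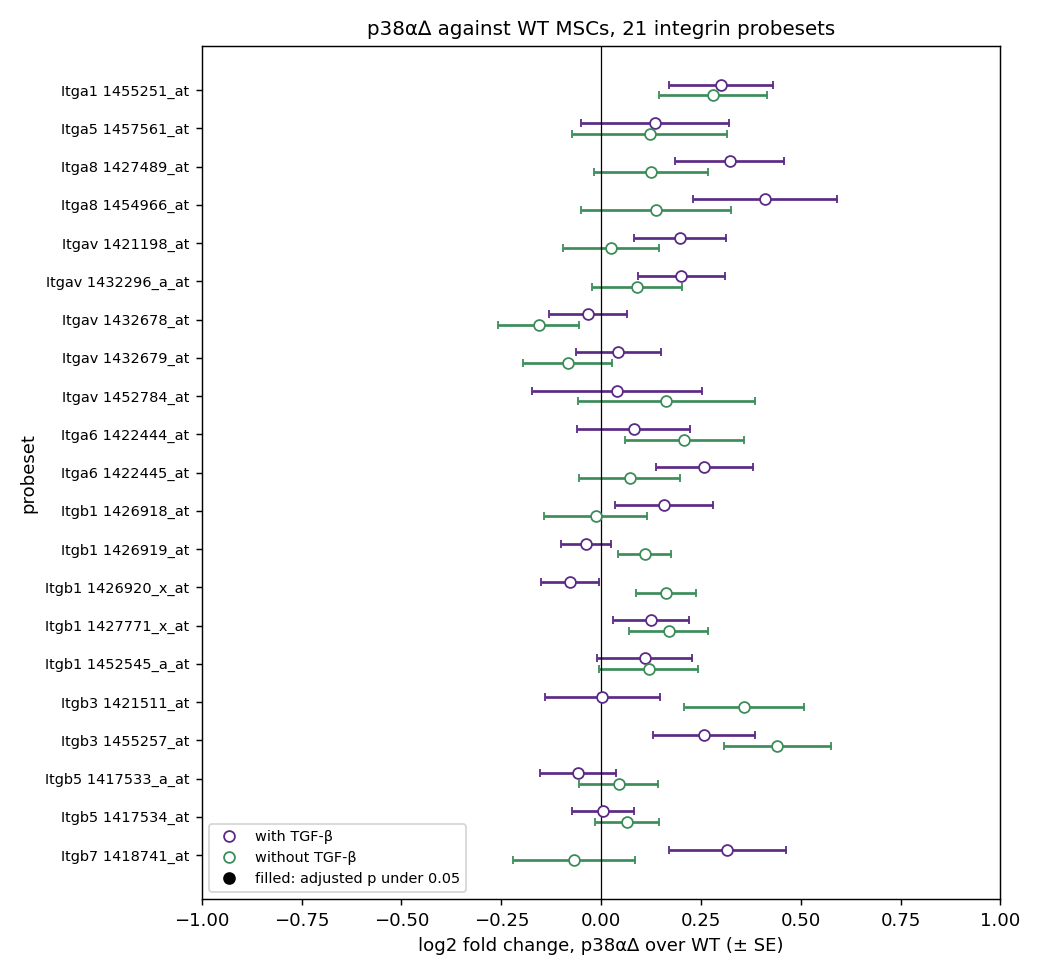
Log2 fold change of p38α∆ over WT MSCs (horizontal axis, with bars giving the SE of the limma fit) of the 21 integrin probesets (vertical axis), with and without TGF-β. No point is filled, since none had an adjusted p under 0.05. The differences run from −0.16 (Itgav probeset 1432678_PM_at, without TGF-β) to 0.44 (Itgb3 probeset 1455257_PM_at, without TGF-β).

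The difference between the 2 TGF-β responses, tested as an interaction, was called by limma for 0.00666% of all probesets and for none of the integrins. The integrin representatives had a median of 0.01 with 5 of 9 above 0. The largest were Itgb7 at 0.38 ± 0.22 and the second Itgb3 probeset, 1421511_PM_at, at −0.36 ± 0.21, both with a limma adjusted p of 0.945.

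Of the other integrins, 14 of 16 genes listed were measured, and only Itga3, the laminin-binding α3 chain, passed the test. In WT MSCs its representative probeset 1455158_PM_at ranged from 6.66 to 7.10 in the untreated arrays and from 5.14 to 5.85 in the treated ones, without overlap, and the log2 fold change was −1.26 ± 0.15 (limma adjusted p = 0.000495). In p38α∆ MSCs it was −1.24 ± 0.20 (limma adjusted p = 0.00381). The other 2 Itga3 probesets fell by 1.18 and 0.64 in WT MSCs. None of these 14 genes rose, and none was called between the genotypes (limma). Over all genes 4.45% fell in WT MSCs and 4.07% in p38α∆ MSCs.

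Of 33 genes for the adaptors that sit on integrin tails, 28 were measured, each read from its representative. In WT MSCs 2 rose, Tns1 (tensin 1, which ties β tails to actin) by 1.04 ± 0.12 and Parvb (β-parvin, a partner of integrin-linked kinase) by 0.73 ± 0.12, and none fell (limma adjusted p = 0.000426 and 0.00342). In p38α∆ MSCs 4 rose, Tns1 by 1.25, Parvb by 0.90, the scaffold Pxn (paxillin) by 0.76 and Zyx (zyxin, found at mature adhesions) by 0.63. None of the 28 was called between the genotypes or in the difference of the responses, so the larger number of calls in p38α∆ MSCs was not shown to be a difference. Over all genes 3.84% rose and 4.45% fell in WT MSCs, and 3.02% rose and 4.07% fell in p38α∆ MSCs. The list's median was 0.02 in WT and 0.05 in p38α∆ MSCs. These counts and medians leave out the other probesets of a gene, which can differ. On its representative Tns3 had WT means of 4.91 without and 4.86 with TGF-β. On 1455333_PM_at its WT means were 9.65 and 9.97, without overlap of the arrays, and its p38α∆ means 9.69 and 10.15. Tln1 (talin 1) had WT means of 4.76 and 4.94 on its representative, but 10.33 and 10.19 on 1448402_PM_at.

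Of 35 genes for integrin ligands and for matrix proteins that carry them, 29 were measured, each read from its representative. In WT MSCs 5 rose: Ccn2 (connective tissue growth factor, a matricellular TGF-β target) by 3.57 ± 0.16, Tgfbi (a secreted matrix protein induced by TGF-β) by 1.36, Tgfb3 by 1.14, Tnc (tenascin C) by 0.87 and Tgfb1 by 0.69 on the log2 scale. Lamb2, a laminin β chain, and the basement membrane protein Nid1 fell by 0.54 and 0.37. In p38α∆ MSCs 5 rose, Ccn2 by 4.73 ± 0.21, Tgfbi by 1.49, Tgfb3 by 1.46, Ccn1 by 1.33 and Tnc by 0.68, and none fell. Between the genotypes with TGF-β 1 of 29 was called, Ccn2, which was 1.74 ± 0.18 higher in p38α∆ MSCs (limma adjusted p = 0.00435). Over all genes 3.84% rose and 4.45% fell in WT MSCs, 3.02% rose and 4.07% fell in p38α∆ MSCs, and 0.211% were higher in p38α∆ MSCs with TGF-β. The medians of the list were 0.00 and 0.01 in WT and p38α∆ MSCs. Here too other probesets of a gene can differ from its representative. Npnt (nephronectin), not called on its representative, had WT means of 9.78 without and 9.07 with TGF-β on 1452106_PM_at, without overlap of the arrays. In p38α∆ MSCs that probeset gave 10.00 and 9.38.

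Of 7 measured MSC markers, Cd44, a hyaluronan receptor, rose in both genotypes (0.71 in WT and 0.88 in p38α∆ MSCs), Nt5e (CD73) rose by 0.49 in WT MSCs, and Pdgfra fell by 0.77 in p38α∆ MSCs. Whether these marker changes bear on the integrin values was not tested. In the 5 epithelial markers Krt19 fell by 0.65 in WT MSCs and in the 4 megakaryocyte markers Gp1bb rose by 0.67 and 0.68, with no other call in these lists (limma). The shares over all genes for these marker lists are those given above.

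The genes most like Itgb7 over the 12 arrays, among 10121 genes at or above the array median, were Gstm1 (glutathione S-transferase), Lamb2 and Ano6 (a lipid scramblase), with Pearson correlations of 0.954, 0.95 and 0.947. Their log2 fold changes to TGF-β in WT MSCs were −0.71, −0.54 and −0.39. For Itgav they were Prdm2, Fam117b and Vapa, at 0.986, 0.98 and 0.978, with 0.61, 0.44 and 0.35. These correlations are a description over arrays that share groups and numbers.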

How the data were processed

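Total RNA of 12 MSC samples had been amplified and hybridized to Affymetrix MG-430 PM arrays. The authors deposited log2 values after RMA (per the submitters' processing notes), 1 per probeset. Of 45101 rows, 64 controls were left out, 28898 probesets carried 1 gene symbol, 551 several and 15588 were not listed in the annotation. All 45037 probesets entered limma 3.58.1 (R 4.3.3) with 4 groups, array number as random block (estimated correlation 0.46, 4b counted as 4), 8 residual and 3.35 prior degrees of freedom and Benjamini-Hochberg adjustment over all probesets, two-sided at 0.05. The methods name scanning batch as covariate; the labels hold the array number only. Deviations from the group mean gave r from 0.113 to 0.837 in all 14 same-numbered pairs. In 39 pairs with different numbers r ran from −0.822 to 0.736, with 12 above 0.1. Deviations cancel within each group, which pushes pairs with different numbers down, so this comparison cannot show by itself that the numbers are blocks. Pairs of number 4 reached only 0.387, below treated p38α∆ array 2 with treated WT array 3 (0.736). WT arrays 4 and 4b differed (SD 0.158) much as 3 and 4 did (0.165) and were kept apart. A gene's representative was the probeset with the highest median absolute deviation. All members were named, from the other integrins every gene could be, and from other lists at most 6 called genes per comparison. Likeness was taken for the 2 members with the largest WT fold change. The members and lists were chosen with earlier results of these data known. The fit was tested on simulated data. Alternatives were the block left out or fixed, gene level, a filter on dim probesets, another quantile normalization, a variance trend, averaging 4 and 4b, the 2 groups alone, another representative and leaving out arrays. Motif search and figures used Python 3.11.15 and matplotlib 3.10.9. The full name of the Cre transgene is not reported here.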

Additional observations from a re-analysis of the deposited data

Results flagged for a closer look

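Among the 4 untreated WT arrays, array 1 stood far below the others on Itgav probeset 1452784_PM_at, at 8.09 (gap to the next array over the range of the group 0.845), and on Itgb1 probeset 1452545_PM_a_at, at 10.78 (0.84). Of 21 probesets tested this way 2 were picked out, where chance picks about 1 in 20. On the dim Itgb1 probeset 1426920_PM_x_at the responses to TGF-β ran in opposite directions in the WT and p38α∆ MSCs, with a difference of −0.24 (limma adjusted p = 0.945).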

How the results depend on the processing

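The count of integrin genes called for the WT response, 1 as reported, was 0 with no replicate block and 2 with the replicate block as a fixed term. It was 2 at gene level, 3 with the filter on dim probesets, 2 with only both compared groups in the fit, 2 without the 4 arrays numbered 1, and between 0 and 2 when single arrays were left out. By representatives it stayed at 1 with renewed quantile normalization, a variance trend, arrays 4 and 4b averaged and the other representative. The counts of the other 4 comparisons were 0 in every alternative run, and no direction of a called value turned. For Itgb7 the call was lost without the block (limma adjusted p = 0.170) and without WT_TGFb array 3 (adjusted p = 0.0624), and its fold change ran from −0.76 to −0.59. Itgb3 was called at gene level (0.0434), with the dim filter (0.0362), with both groups alone (0.0375), and without p38aKO array 1 or 3 or WT array 4b, and its other probeset with 4 and 4b averaged (0.0363), without 4b (0.0172) and with the dim filter (0.0306). Itgav was called with the fixed block (0.0341) and the dim filter (0.0436), and Itga5 without the arrays numbered 1 (0.0465). Over all probesets the WT response had 994 calls without the block and 2704 with it. The p38α∆ response was not run on its 2 groups alone, since they share only number 1 and the correlation of the block could not be estimated, and the background correction could not be redone from these values. Where 1 p38α∆ array was left it was assumed to vary like the others. The causes were not tested. The number of arrays, 2 to 4 a group, and the dim signal of Itga1, Itga5 and Itga6 limit what could be detected.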
